A study of Mus musculus with 2 samples.

Results

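Myosin heavy chains are the motor subunits of muscle and nonmuscle myosin, and Mhrt is a noncoding RNA read from the strand opposite to Myh7. The 10 genes described here (Myh6, Myh7, Myh7b, Myh9, Myh10, Myh11, Myh14, Myh3, Myh8 and Mhrt) were taken by symbol from the 55536 gene identifiers of the deposited tables. All of them were found. Heart RNA came from male B6CASTF1/J mice, the F1 cross of a C57BL/6J and a CAST/EiJ parent, at 14 days after birth, with no treatment named. The group comprised 2 libraries, replicate 1 and replicate 2, each made from 300 ng of total RNA after removal of ribosomal RNA, with ERCC spike-ins. The labels of both libraries name 3 males and carry the same donor label, and do not state whether hearts were pooled, so the spread between them may in part be technical. There was 1 group, so the comparisons are between genes within a library and between the libraries.

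In the heart, the alpha chain Myh6 and the beta chain Myh7 carry the ATPase that pulls on actin, the alpha chain being the faster. In mice the beta chain is the main ventricular form before birth and the alpha chain takes over after it, under the influence of thyroid hormone. The genes lie side by side on chromosome 14. Mhrt was described in the mouse heart as a nuclear RNA that binds Brg1, a chromatin remodeller that acts on both genes. Myh7b is an ancient relative of the sarcomeric chains, Myh9, Myh10 and Myh14 are the nonmuscle chains found in most cells, Myh11 is the smooth muscle chain, and Myh3 and Myh8 are the embryonic and perinatal chains of skeletal muscle.

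Depth was 39334380 expected counts in replicate 1 and 46391250 in replicate 2. Defining genes of heart muscle were high in both libraries, among them cardiac actin Actc1 at 7149.86 TPM in replicate 1 and 7350.77 TPM in replicate 2 (TPM is an abundance scaled for transcript length and library size). The libraries stood apart in markers of the atria and of T cells and thymus. The 6 atrial markers, led by Nppa (atrial natriuretic peptide), Myl7 and Myl4 (atrial light chains), summed to 1636 TPM in replicate 1 and 508.9 TPM in replicate 2. The 8 markers of T cells and thymus, led by Rag1, Cd8a and Lck, summed to 1.33 TPM in replicate 1 and 52.1 TPM in replicate 2, with Ptcra listed at 0.00 and 0.32 TPM.

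Stretches of Myh7, Myh6 and Mhrt that later paragraphs refer to are shown first, 5′ to 3′ (mm10, minus strand for Myh6 and Myh7, as annotated in GENCODE M21). Myh7-206 is a transcript of 595 bases annotated as a retained intron. Its first 100 bases are given with the 23 bases that lie outside the full-length coding transcript Myh7-201 in capitals (chr14:54973429-54973528).
Myh7-206 start: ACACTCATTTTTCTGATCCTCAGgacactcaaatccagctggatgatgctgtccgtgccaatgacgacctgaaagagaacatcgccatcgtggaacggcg
The other 572 bases of Myh7-206 are coding exons 36 to 38 of Myh7-201, which contribute 204, 126 and 242 bases. Within them, windows of 100 bases in exon 38 of Myh7 (chr14:54972858-54972957) and exon 36 of Myh6-201 (chr14:54944448-54944547) were identical.
Myh7 exon 38: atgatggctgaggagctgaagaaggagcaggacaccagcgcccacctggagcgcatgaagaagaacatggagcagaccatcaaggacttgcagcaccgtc
Myh6 exon 36: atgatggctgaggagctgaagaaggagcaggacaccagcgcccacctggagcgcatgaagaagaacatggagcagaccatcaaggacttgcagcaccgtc
The least alike pair of windows lying within 1 exon, in exon 37 of Myh7 (chr14:54973080-54973179) and exon 35 of Myh6 (chr14:54944670-54944769), differed at 6 bases, shown in capitals.
Myh7 exon 37: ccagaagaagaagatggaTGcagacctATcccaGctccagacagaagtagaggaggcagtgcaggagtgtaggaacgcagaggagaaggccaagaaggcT
Myh6 exon 35: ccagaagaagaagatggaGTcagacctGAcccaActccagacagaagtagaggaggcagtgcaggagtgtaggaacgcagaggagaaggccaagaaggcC
Parts of Mhrt-201 lie opposite coding exons of Myh7. Its exon 2, on the plus strand, is 81 bases (chr14:54971410-54971490), all of them opposite exon 40 of Myh7-201.
Mhrt-201 exon 2: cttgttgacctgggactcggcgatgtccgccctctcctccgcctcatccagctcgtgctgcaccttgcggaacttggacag

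Myh6 was the dominant heavy chain. Myh6 (ENSMUSG00000040752.16, chromosome 14, 54941921 to 54966927) stood at 10740.82 TPM in replicate 1 and 9519.77 TPM in replicate 2, or 10130.3 ± 863 TPM (SD, n = 2). It was the second highest nuclear protein-coding gene in both libraries and took 3.08% and 2.76% of all counts assigned to genes. Myh7 (ENSMUSG00000053093.16, chromosome 14, 54970684 to 54994626) stood at 981 TPM in replicate 1 and 822 TPM in replicate 2, or 901 ± 113 TPM (SD, n = 2). The values of the alpha chain were far above those of the beta chain in both libraries, with a log2 ratio of TPM of 3.45 and 3.53, a mean of 3.49 ± 0.06 (SD, n = 2) or 11.3-fold. Of the TPM of the 9 heavy chains, Myh6 took 90.7% in replicate 1 and 90.9% in replicate 2, and Myh7 took 8.28% and 7.85%. In tissue RNA, fewer cells of a type and less RNA per cell cannot be told apart. With 2 values an exact sign-flip test cannot go below p = 0.5, so ratios between genes carry no test.

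The other members were well below both cardiac chains in gene-level TPM; the nearest, Myh9, was at a log2 ratio of Myh7 over Myh9 of 4.05 in replicate 1 and 3.54 in replicate 2, and of 1.61 ± 0.38 (SD, n = 2) over coding transcripts alone. Myh9, the nonmuscle IIA chain (chromosome 15, 77760587 to 77842175), stood at 59.1 TPM in replicate 1 and 70.6 TPM in replicate 2. Mhrt (ENSMUSG00000097652.2, chromosome 14, 54968678 to 54974349) stood at 36.9 TPM in replicate 1 and 37.3 TPM in replicate 2, from 712 and 871 counts. Both were well above the detection level of 1 TPM. Mhrt had the lowest SD of the 8 detected members, 0.304 TPM (n = 2). The authors' interval for its TPM was far wider, at 33.4 to 39.0 in replicate 1 and 34.2 to 39.3 in replicate 2.

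Myh14, the nonmuscle IIC chain (chromosome 7, 44605803 to 44670843), stood at 25.9 TPM in replicate 1 and 22.6 TPM in replicate 2. Myh10, the nonmuscle IIB chain (chromosome 11, 68691559 to 68816632), stood at 17.5 and 19.2 TPM. The nonmuscle chains together summed to 102.55 TPM in replicate 1 and 112.41 TPM in replicate 2, of which Myh9 took 57.7% and 62.8%, Myh14 took 25.2% and 20.1%, and Myh10 took 17.1% in each. Myh9 over Myh10 had a log2 ratio of TPM of 1.75 in replicate 1 and 1.87 in replicate 2, or 3.51-fold, and Myh14 over Myh10 had 0.56 and 0.23.

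Myh7b (chromosome 2, about 155611210 to 155634310, rounded positions) stood at 10.8 TPM in replicate 1 and 13.0 TPM in replicate 2. The smooth muscle chain Myh11 (chromosome 16, 14194535 to 14291372) stood at 9.99 and 8.05 TPM. The order of the 8 detected genes was therefore Myh6, Myh7, Myh9, Mhrt, Myh14, Myh10, Myh7b and Myh11, and no neighbours in it overlapped between the libraries. The closest neighbours were Myh7b and Myh11, with a log2 ratio of TPM of 0.11 in replicate 1 and 0.68 in replicate 2. That order depended on the table in 1 place: in the kallisto-style table Mhrt was at 64.4 and 64.2 TPM and Myh9 at 54.5 and 68.4 TPM, so these overlapped.

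The skeletal muscle chains were near the limit of counting. Myh8, the perinatal chain (chromosome 11, 67277124 to 67308634), had 11 counts in replicate 1 and 7 counts in replicate 2, or 0.07 and 0.04 TPM. Myh3, the embryonic chain (chromosome 11, 67078300 to 67102291), had 1 and 0 counts, at or below the 3 counts that a count of 0 allows, which correspond to 0.0166 TPM in replicate 1 and 0.0139 TPM in replicate 2 (counting error only). The kallisto-style table gave more, with 27.3 and 29.2 counts for Myh8 and 7.28 and 5.55 counts for Myh3. The 5 heavy chain genes outside the 10, Myh1, Myh2, Myh4, Myh13 and Myh15, had at most 1 count each in replicate 1 and at most 2 in replicate 2 in the RSEM-style table; in the kallisto-style table the highest was Myh1, at 9.62 and 13.2 counts. The 6 skeletal muscle markers were also low, with sums of 3.76 TPM in replicate 1 and 4.84 TPM in replicate 2. Of these, Tnni2 and Mylpf, fast troponin I and a fast light chain, led the list, while Tnnt3, Actn3, Tnnc2 and Ryr1 were below 1 TPM in both libraries. Of the 6050 words of 100 bases in Myh8-201, 400 also occur in Myh1, Myh2, Myh4 or Myh13.

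**Figure D1:**
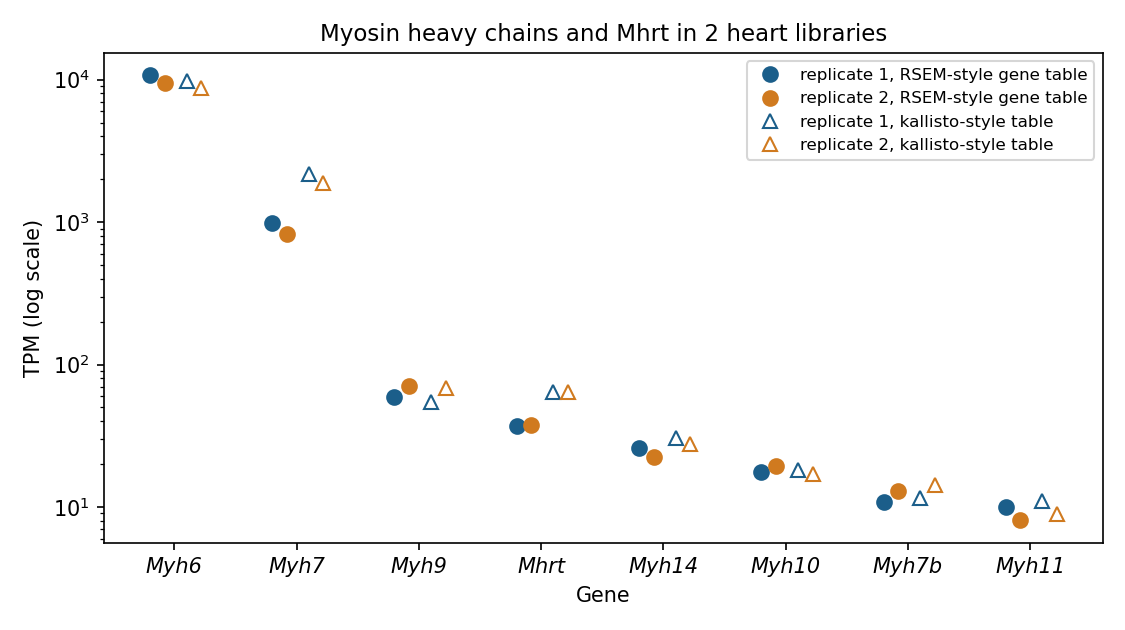
TPM on a log axis of the 8 members above 1 TPM, in the RSEM-style gene table (filled circles) and summed from the kallisto-style table (open triangles), with replicate 1 left of replicate 2 in each pair of points. The 2 libraries lie close together for each gene, and the tables part most for Myh7 (981 and 822 TPM against 2165 and 1888 TPM) and Mhrt (36.9 and 37.3 TPM against 64.4 and 64.2 TPM).

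The level of Myh7 rested mostly on the short transcript shown above. Myh7-206 stood at 823 TPM in replicate 1 and 687 TPM in replicate 2, and the full-length Myh7-201 at 158 and 135 TPM. Transcripts annotated as retained introns thus took 83.9% of Myh7 TPM in replicate 1 and 83.5% in replicate 2, and coding transcripts 16.1% and 16.5%. In expected counts, which are not divided by length, the coding share was 70.0% in replicate 1 (Wilson 95% interval 69.6 to 70.5%) and 70.6% in replicate 2 (70.1 to 71.0%), from 29206 and 29926 counts on Myh7-201 against 12493 and 12484 on Myh7-206. These intervals cover counting error only, not the division of reads between transcripts. In the kallisto-style table the coding share of TPM was lower still, 9.88% and 9.93%.

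Read density set Myh7-206 apart from other short transcripts of the family. It had 25.2 counts per base of effective length in both libraries, against 4.84 in replicate 1 and 4.96 in replicate 2 on Myh7-201, a ratio of 5.21 and 5.08. Across the family, 11 transcripts shorter than 2000 bases carried at least 5% of their gene's TPM in either library. The other 10 all had a lower density than the coding transcript with the most counts, with ratios between 0.0234 and 0.725. The closest to 1 were Myh7b-203 at 0.725 and 0.620 and Myh6-207 at 0.655 and 0.616, in replicate 1 and replicate 2. The sequence under this density is not intronic for the most part. Of the 496 words of 100 bases in Myh7-206, 475 occur in Myh7-201 and 21 do not.

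The same stretch is among the parts of Myh7 closest to Myh6. Of the words of Myh7-206, 130 (26.2%) occur unchanged in Myh6, against 687 of 6036 words (11.4%) for Myh7-201 as a whole. In the other direction, 139 of the 443 words of the short Myh6-207 (31.4%) occur in Myh7. Allowing up to 2 mismatches without gaps, 336 of the 496 windows (67.7%) had a match in Myh6-201, with a median of 2 mismatches. Among the 5563 windows of Myh7-201 outside Myh7-206, 26.3% had such a match and the median was 7 mismatches. The longest identical run between Myh7-206 and Myh6-201 was 200 bases. Other windows elsewhere in Myh7-201 are as close, the longest run being 245 bases across exons 32 and 33 of Myh7, so closeness to Myh6 is not restricted to this stretch. Myh6 had 1203497 counts in replicate 1 and 1272832 in replicate 2, against 41703 and 42413 for Myh7. Whether reads of Myh6 were placed on Myh7-206 was not tested.

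**Figure D2:**
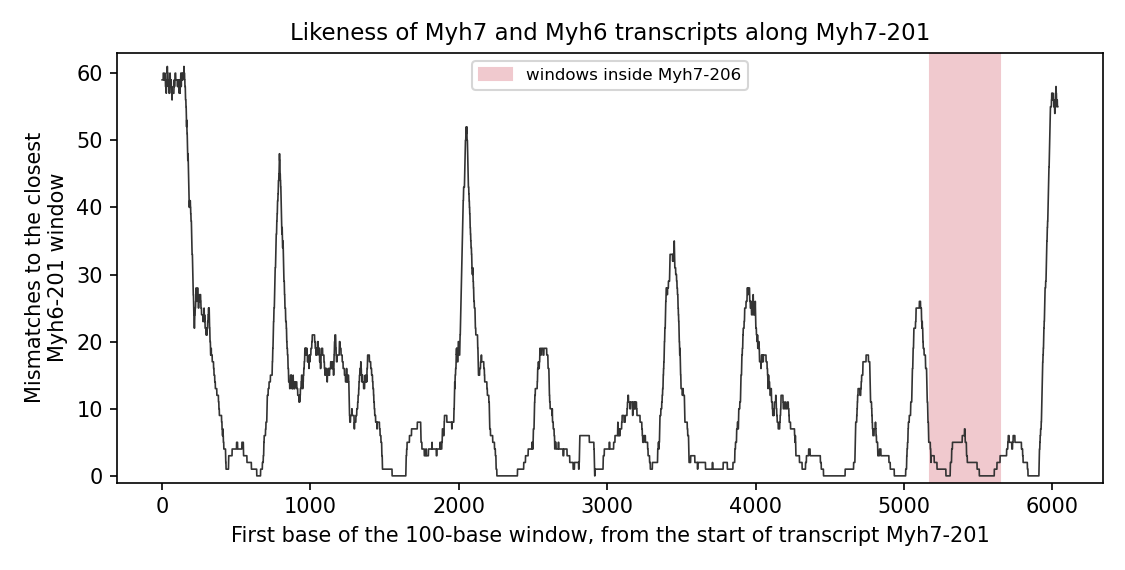
Mismatches, without gaps, between each window of 100 bases of Myh7-201 (horizontal axis, bases from the transcript start) and the closest window of Myh6-201 (vertical axis). The shaded band marks the windows inside Myh7-206, where the median is 2 mismatches, against 7 outside it.

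The ratio of the alpha to the beta chain depended on the quantity used. Over coding transcripts alone the log2 ratio of TPM was 6.10 ± 0.04, and on expected counts it was 4.88 ± 0.04 (SD, n = 2 each). The coding ratio is not between like transcripts. It leaves out the short Myh7-206, annotated as a retained intron, at 823 TPM in replicate 1 and 687 TPM in replicate 2. It keeps the short Myh6-207, annotated as coding, at 2967 and 2551 TPM, and Myh6-202 at 1191 and 1106 TPM. A ratio between full-length transcripts alone was not computed. In the kallisto-style table, where Myh7 was 2.25 times its RSEM-style level, the log2 ratio was 2.19 ± 0.02 and Myh6 took 81.0% and 81.1% of the TPM of the 9 heavy chains. The alpha chain was the higher in each of these. The authors' posterior SD of the gene count was the same for Myh6 and Myh7, 88.9 counts in replicate 1 and 97.8 in replicate 2. For Myh9 and Myh10, which share 23 words of 100 bases, it was 3.02 and 3.46 counts for each gene, and for Mhrt, Myh7b, Myh11 and Myh14 it was 0.00.

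Transcript use within the other members was mostly coding, but its division was uncertain. Coding transcripts took 98.9% of Myh6 TPM in both libraries and retained introns 1.09% and 1.07%. Myh6-201 stood at 4529 TPM in replicate 1 and 4139 TPM in replicate 2, Myh6-205 at 1746 and 1399 TPM, and the short coding transcripts Myh6-207 (542 bases) at 2967 and 2551 TPM and Myh6-202 (376 bases) at 1191 and 1106 TPM. In the kallisto-style table Myh6-202 was listed at 0 and Myh6-205 at 1074 and 504 TPM. The posterior SD of the Myh6-201 count was 10644 in replicate 1 and 10789 in replicate 2, so the division between Myh6-201 and Myh6-205 is far less certain than their sum.

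Among the 8 members above 1 TPM, Myh7b was the other with a large share annotated as retained intron. Its only coding transcript, Myh7b-201, took 53.1% of TPM in replicate 1 and 54.5% in replicate 2, and the retained-intron transcript Myh7b-203 took 38.6% and 33.8%. On expected counts these became 92.3% and 92.7% for Myh7b-201, and 6.35% (Wilson 95% interval 5.07 to 7.89%) and 5.45% (4.44 to 6.60%) for Myh7b-203. Here, unlike in Myh7-206, most of the sequence is particular to the transcript: 411 of its 575 words are not in Myh7b-201, and none occurs in another gene. Myh7b-203 rested on 73.1 and 92.5 counts, and its share was 24.1% and 22.3% of TPM in the kallisto-style table.

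Coding shares of TPM were 72.5% and 75.2% for Myh9, 67.9% and 68.3% for Myh10, 77.6% and 74.5% for Myh14, and 98.0% and 98.3% for Myh11, in replicate 1 and replicate 2. On expected counts all of these were above 90%: 95.6% and 95.9%, 93.0% and 92.7%, 92.3% and 91.3%, and 99.5% in each. The remainder for Myh9 was mainly the processed transcript Myh9-203 (720 bases), at 23.2% and 20.3% of TPM but 2.59% and 2.19% of counts. For Myh10 it was mainly Myh10-206, at 18.4% and 19.2% of TPM, and Myh10-208, at 10.6% and 5.62%. For Myh14 it was Myh14-205, at 21.7% and 25.1%. The coding share of Myh14 included the short Myh14-207 (471 bases), at 22.7% and 19.4% of TPM but 2.20% and 1.86% of counts. The kallisto-style table gave Myh9-203 3.46% and 3.37%, Myh14-205 3.90% and 7.71%, and Myh10-208 20.7% and 0%, with Myh10-206 listed at 0. Myh11 was split between the full-length coding transcripts Myh11-201, at 73.7% and 64.6% of TPM, and Myh11-204, at 18.2% and 31.1%.

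**Figure D3:**
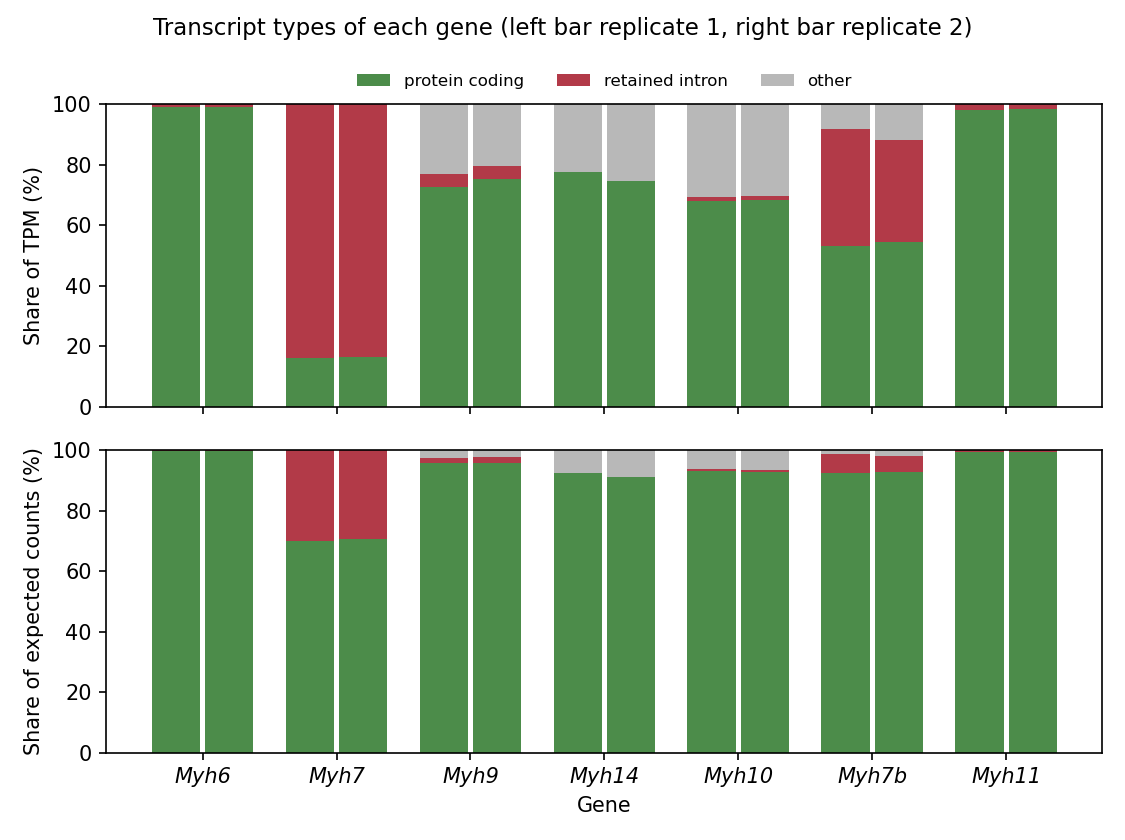
Percent of each gene's TPM (upper panel) and of its expected counts (lower panel) in protein-coding, retained-intron and other transcripts, with replicate 1 as the left bar and replicate 2 as the right bar of each pair. Retained introns take 83.9% and 83.5% of Myh7 TPM but 30.0% and 29.4% of its counts, while for Myh6 they take 1.09% and 1.07% of TPM.

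Mhrt starts 1751 bases from the 5′ end of Myh6, in the gap of 3757 bases between Myh7 and Myh6, and runs into Myh7 from its 3′ end, with 3666 of its 5672 bases inside the Myh7 gene. The spliced transcript Mhrt-201 stood at 27.4 TPM in replicate 1 and 28.3 TPM in replicate 2, from 611 and 756 counts. Mhrt-202 stood at 9.48 and 9.01 TPM, from 101 and 115 counts. Per base of effective length, Mhrt-201 had 0.838 and 1.04 counts and Mhrt-202 had 0.290 and 0.330. The kallisto-style table gave Mhrt-202 a larger part, at 41.0% and 40.7% of Mhrt TPM against 25.7% and 24.2%.

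The transcripts differ in how they lie against Myh7. Of the 828 bases of Mhrt-201, 463 (55.9%) are opposite exons of Myh7-201, including all of exon 2 shown above and all 148 bases of exon 3, which is opposite exon 38. Mhrt-202 has 0 of 447 bases opposite a Myh7-201 exon. No word of 100 bases of either transcript occurs in a transcript of another gene on the sense strand. The libraries were stranded per the labels, but the sources used here do not give the strand setting used for counting. The authors' posterior SD of the Mhrt-201 count was 0.00 in both libraries, that is, no reads were divided between it and other transcripts. Whether reads of Myh7 were counted on Mhrt-201 was not tested. The antisense gene Gm29015, which lies within the Mhrt interval with 84 of 126 and 58 of 81 exon bases opposite Myh7-201 exons, had 7 counts in replicate 1 and 5 counts in replicate 2.

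Mhrt was far below both cardiac chains. Its log2 ratio of TPM to Myh7 was -4.73 in replicate 1 and -4.46 in replicate 2, a mean of -4.59 ± 0.19 (SD, n = 2), or 24.2-fold lower. To Myh6 it was -8.18 and -7.99, or 272-fold lower. Against the coding transcripts of Myh7 alone the log2 ratio was -1.98 ± 0.17 (SD, n = 2).

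Each of the 3 heart-muscle chains also hosts a microRNA in its introns: miR-208a in Myh6, miR-208b in Myh7 and miR-499 in Myh7b. Their mature sequences (RefSeq, GRCm38.p6), with the seed, bases 2 to 8, in capitals, show that the first 2 share a seed and that the seed of miR-499-5p differs from it at 1 position.
miR-208a-3p (chr14:54949072-54949093, minus strand): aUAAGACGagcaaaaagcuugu
miR-208b-3p (chr14:54975710-54975731, minus strand): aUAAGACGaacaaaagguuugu
miR-499-5p (chr2:155622893-155622913, plus strand): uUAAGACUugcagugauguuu
Mir208a, Mir208b and Mir499 were listed at 0 counts in both libraries with an effective length of 0, so the tables do not measure them, whatever the level of the host genes.

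The libraries were compared over all 16611 genes with at least 10 counts in each or 20 in total, by an exact 2-sided binomial test with TMM-scaled library sizes and Benjamini-Hochberg adjustment. Of the 10 members, 8 entered the test; Myh3 and Myh8 had too few counts. The test called 6 of the 8 at an adjusted p under 0.05, against 22.1% of all genes tested, with 4 higher in replicate 1 (background 11.6%) and 2 lower (background 10.4%). The test compares 2 libraries on counting error alone, which is small for genes this abundant. None of the 8 reached a ratio of 2 (background 3.24%). Their median absolute log2 ratio was 0.24, against 0.14 over all genes tested and 0.075 over the 4551 genes with at least 1000 counts.

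The log2 ratio of replicate 1 over replicate 2 was 0.20 for Myh6 (exact 95% interval 0.20 to 0.21) and 0.26 for Myh7 (0.24 to 0.28), both higher in replicate 1. Myh11 was also higher in replicate 1, at 0.33 (0.24 to 0.43), as was Myh14, at 0.21 (0.14 to 0.28). Myh9 was lower in replicate 1, at -0.28 (-0.32 to -0.24), as was Myh7b, at -0.27 (-0.38 to -0.17). Myh10 was at -0.068 (-0.14 to 0.0015; adjusted p = 0.17 in the exact binomial test) and Mhrt at -0.0058 (-0.15 to 0.14; adjusted p = 0.985 in the same test). Myh6 and Myh7 thus moved the same way, while Mhrt, which overlaps Myh7, had a ratio near 0; the difference between these ratios was not tested. With edgeR's exact test and an assumed coefficient of variation of 0.1 between samples, 0 of the 8 members were called (background 2.85%), and with 0.2 also 0 (background 1.38%).

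**Figure D4:**
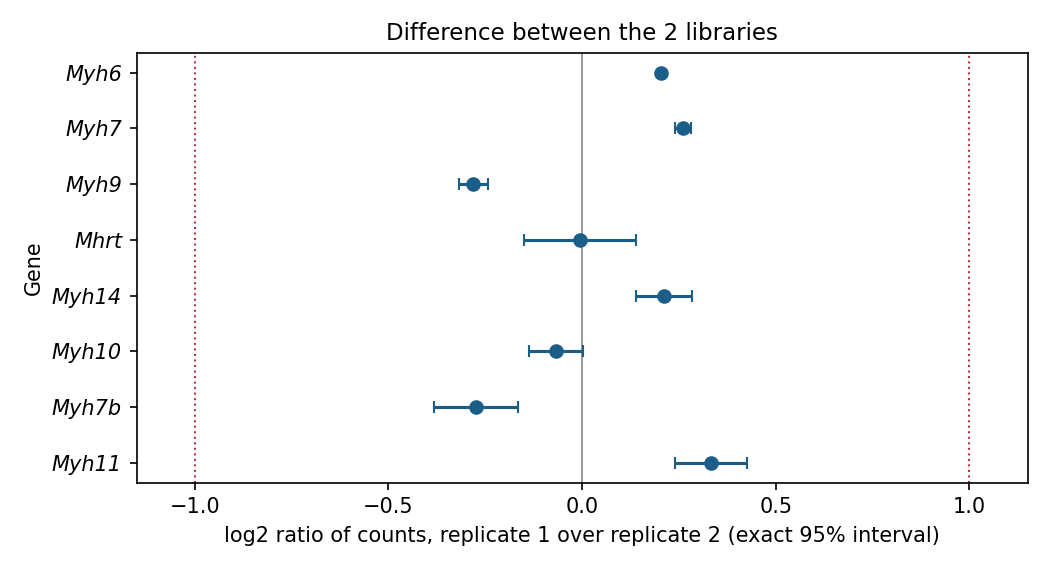
Log2 ratio of counts, replicate 1 over replicate 2, with exact 95% intervals for the 8 members tested; the dotted lines mark a ratio of 2 in either direction. Myh6, Myh7, Myh14 and Myh11 lie above 0, Myh9 and Myh7b below 0, and every interval stays between the dotted lines.

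These small ratios stand beside larger ones in markers of the atria and of T cells and thymus. The part of those larger differences in the result was not tested. All 6 atrial markers were at least 2-fold higher in replicate 1 (background 0.771%), with a median log2 ratio of 1.60. All 7 tested markers of T cells and thymus were at least 2-fold lower in replicate 1 (background 2.47%). The marker lists were chosen with earlier results of these data known, so these shares describe the lists and do not test them. By smaller ratios, 3 of the 5 macrophage markers were called lower in replicate 1 (background 10.4%), and the list summed to 44.2 TPM in replicate 1 and 54.8 TPM in replicate 2. As background, Myh9 is abundant in blood cells. Whether such cells had a part in its ratio was not tested. Beside Myh11, the smooth muscle markers did not move as one: 3 of 6 were called higher in replicate 1 (background 11.6%) and 1, the smooth muscle actin Acta2, lower (background 10.4%), with sums of 264 TPM in replicate 1 and 302 TPM in replicate 2. Against the same backgrounds of 11.6% higher and 10.4% lower, cardiomyocyte markers were called higher in replicate 1 for 4 of 6 and lower for 1, fibroblast markers higher for 5 of 6, endothelial markers higher for 4 of 6, erythroid markers higher for 4 and lower for 2 of 6, and skeletal muscle markers for 0 of the 3 tested in the binomial test. The binomial calls rest on counting error alone. With edgeR's exact test and an assumed coefficient of variation of 0.1, all tested atrial and T cell markers were still called (background 2.85%). None of the markers in the other lists was. No marker in any list had 0 TPM in both libraries.

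Among the proteins that work with the heavy chains, the ventricular light chains were the most abundant. The ventricular light chain Myl2 stood at 7214.52 TPM in replicate 1 and 7049.07 TPM in replicate 2, the essential light chain Myl3 at 5040.37 and 4966.7 TPM, and Mybpc3, cardiac myosin-binding protein C, at 799.51 and 787.16 TPM. Mybpc1, the slow skeletal form, was at 0.11 and 0.08 TPM. Of the 25 partners, 24 were tested and the binomial test called 9 higher (background 11.6%) and 5 lower (background 10.4%) in replicate 1, with a median log2 ratio of 0.0025 (6.5e-06 over all genes tested). The 3 that reached a ratio of 2, Myl7, Myl4 and Mybphl, were all higher in replicate 1 (background 0.771%); Myl7 and Myl4 are also among the atrial markers, and Mybphl was named after its values were seen.

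The factors that act on Myh6 and Myh7 were at modest levels. Of 22 regulators, the highest were Mef2a, a MADS-box factor, at 60.9 TPM in replicate 1 and 67.8 TPM in replicate 2, Tead1, which binds the M-CAT element, at 60.9 and 63.0 TPM, and Thra, the alpha thyroid hormone receptor, at 55.2 and 53.1 TPM. Eya4 was at 0.11 TPM in both libraries. The binomial test called 4 higher (background 11.6%) and 5 lower (background 10.4%) in replicate 1, and 0 reached a ratio of 2 (background 3.24%), with a median log2 ratio of 0.0064.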

How the data were processed

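The authors deposited, for each library, gene and transcript tables with RSEM column names and a transcript table with kallisto column names; the sources used here give no aligner, version or strand setting, and the authors' readme names mm10 and GENCODE M21. Per the file headers the values are expected counts (estimated counts in the kallisto-style table), TPM, the posterior SD of counts, and the percent of a gene's TPM per transcript. Rows that name no gene held 0.518% and 0.531% of counts and were left out. Depth was 39130824 and 46144867 counts on genes. The reference is C57BL/6J sequence, so CAST/EiJ reads may be placed less well; this was not tested.

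From these, TPM ratios (pseudocount 0.1), transcript shares and a per-gene exact binomial test on rounded counts were computed (Python 3.11.15, scipy 1.17.1, R 4.3.3, edgeR 4.0.16 for TMM and its exact test, DESeq2 1.42.0 for size factors), the test also being checked on simulated data. Shared sequence was counted in windows of 100 bases. The members, gene lists and tests were chosen with earlier results of these data known. Named genes were all members, the other heavy chains, the hosted microRNAs, the top 3 and up to 4 undetected genes of each list, not all of them printed, and transcripts with at least 5% of a member's TPM. Alternatives covered the table, coding transcripts, length scaling, pseudocount, detection level, scaling, filter and assumed variation.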

Additional observations from a re-analysis of the deposited data

How the results depend on the processing

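The direction of the Myh6 to Myh7 and Mhrt to Myh7 ratios held under every alternative run, but their size did not. The log2 ratio of Myh6 over Myh7 was 3.49, and 3.45 to 3.53 with 1 library left out. It was 2.19 in the kallisto-style table, 6.10 over coding transcripts and 4.88 on undivided counts. The coding setting keeps short transcripts of Myh6 but leaves out the short Myh7 transcript annotated as a retained intron. Mhrt over Myh7 was -4.97, -1.98 and -5.74 under the same alternatives, against -4.59, and -4.73 to -4.46 with 1 library left out. The coding share of TPM was 99.4% for Myh6 and 9.90% for Myh7 in the kallisto-style table, and 99.8% and 70.3% on counts. Between close neighbours the sign of the mean log2 ratio changed. Myh9 over Mhrt was -0.074 in the kallisto-style table (-0.24 in replicate 1 and 0.092 in replicate 2) and Myh14 over Myh10 was -0.13 on undivided counts (0.014 and -0.27), so in these the libraries differed in sign. Mhrt over Myh14 was -1.99 on undivided counts, and Myh7b over Myh11 was -0.46 over coding transcripts and -0.44 on undivided counts. Undivided counts favour longer transcripts by construction. Effective length was 99 bases below transcript length in the RSEM-style table. In the kallisto-style table it was 332 bases below in replicate 1 and 336 in replicate 2 (medians over long transcripts). Short transcripts thus get more TPM per count there by construction. Mhrt had fewer counts there, 688 and 802 against 712 and 871, but more TPM. How much of the shifts this accounts for was not tested, nor was the cause of the others. All 8 members above 1 TPM were also above 0.5 and 5 TPM.

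Between the libraries, 3666 genes were called, 52.7% of them higher in replicate 1; with library totals in place of TMM factors that share was 32.4%, and Myh10 was then called lower in replicate 1 (log2 ratio -0.11, adjusted p = 0.0071 in the binomial test). With edgeR's exact test and an assumed coefficient of variation of 0.1 the calls fell to 474 genes and 0 members, and with 0.2 to 230 genes, all of them at least 2-fold, and 0 members. A library could not be left out of this comparison, since each side has 1. No paired analysis was possible because both libraries belong to 1 group.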
